A study of Homo sapiens with 5 samples.

Results

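Binding of the retinoblastoma protein (Rb) was examined at 9 genes that make, recycle, convert or clear the deoxynucleotides (dNTPs) used in DNA synthesis. The genes were taken by name from a list, namely RRM1, RRM2, RRM2B, TYMS, TK1, DUT, DCK, DCTPP1 and SAMHD1, out of 19970 coding genes annotated on the autosomes and X. All cells were parental ZR-75-1, an established oestrogen receptor-positive breast cancer line. They received DMSO or the CDK4/6 inhibitor abemaciclib at 500 nM for 4 days. Rb was profiled by CUT&RUN, which sequences the DNA that an antibody-tethered nuclease frees around a chromatin protein, in 2 libraries per treatment, with 1 IgG2a library from DMSO cells as a negative control. The line is a single cell line, peak lists carry no expression, and its identity was therefore not checked against markers. The study describes independent samples, but the labels do not say which libraries shared an experimental run, so an effect of the run was not tested.

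Cells about to replicate DNA need all 4 dNTPs in balance. Ribonucleotide reductase, a large subunit (RRM1) joined to a small one (RRM2, or RRM2B in quiescent or damaged cells), reduces ribonucleotides to deoxynucleotides. Thymidylate comes from dUMP through thymidylate synthase (TYMS), with DUT supplying dUMP and keeping uracil out of DNA, or from salvaged thymidine through thymidine kinase (TK1). Several of these genes are textbook targets of E2F factors. Hypophosphorylated Rb binds E2F factors and represses their targets, and CDK4 and CDK6 phosphorylate Rb to release it.

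Promoter peaks of Rb were found at more of these genes with abemaciclib than with DMSO. A promoter peak was a called peak that overlapped the interval from 2000 bp upstream to 500 bp downstream of any GENCODE 44 transcription start site (TSS) of the gene. Of the 9 genes, 4 had a promoter peak in DMSO replicate 1, where 7.86% of all coding genes had one, and 4 in DMSO replicate 2, where 12.4% did. With abemaciclib, 8 of the 9 had a promoter peak in replicate 1 (58.0% of all coding genes) and 8 in replicate 2 (53.9%). The mean was 8.0 ± 0 genes with abemaciclib and 4.0 ± 0 with DMSO (SD, n = 2 each), a difference of 4.0. Both abemaciclib counts exceeded both DMSO counts, and the two-sided exact permutation p was 0.333, which no design of 2 libraries against 2 can go below. None of the 9 genes had a promoter peak in the IgG2a library, where only 0.0300% of all coding genes had one, so this was near the background. No IgG2a peak overlapped any of their Rb peaks.

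The genes fell into 4 patterns. RRM2, TYMS and DUT had a promoter peak in both DMSO libraries and in all 4 Rb libraries. Across all coding genes, 6.41% had one in both DMSO libraries, and the same 6.41% had one in all 4. TK1 and RRM2B were called in both abemaciclib lists and in 1 DMSO list, which was replicate 2 for TK1 and replicate 1 for RRM2B. RRM1, DCK and DCTPP1 were called in both abemaciclib lists but in no DMSO list, a pattern held by 38.9% of coding genes, so 3 of 9 was near the background. A peak in both abemaciclib libraries was held by 8 of the 9 genes and by 52.7% of coding genes. SAMHD1, which hydrolyses dNTPs, had no promoter peak in any Rb library, as was the case for 40.7% of coding genes.

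These counts depend on how many peaks each list holds. The DMSO lists held 1438 and 2582 peaks, the abemaciclib lists 13960 and 12234, and the IgG2a list 589. When each Rb list was limited to its 1438 strongest peaks, 3 genes (TYMS, TK1 and DUT) kept a promoter peak in both abemaciclib libraries, none had one in both abemaciclib lists without a DMSO peak, and the difference between treatments was 0. The depth of each library was not given in the sources used here, and the lowest recurrent background was 0.649 and 0.677 fragments per base in the DMSO libraries, 0.656 and 0.521 in the abemaciclib libraries, and 0.531 in IgG2a. The lowest recurrent background was computed as the local background found most often among the peaks of a library. At that background the lowest summit that was called held 6 fragments in each DMSO library and 5 in each abemaciclib library. A gene without a peak may therefore carry Rb signal below that level.

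**Figure D1:**
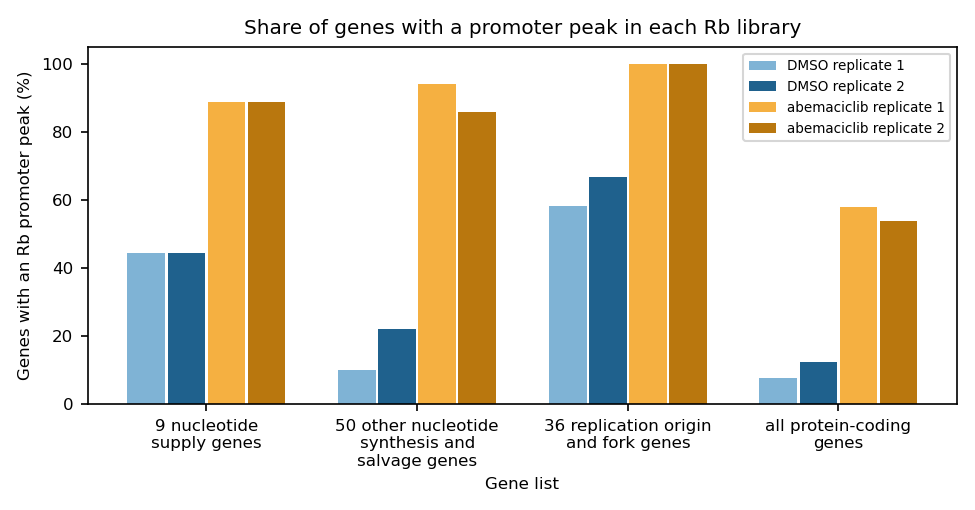
Share of genes with an Rb promoter peak (y axis, percent, from 0) in each Rb library (coloured bars) for the 9 nucleotide supply genes, 50 other nucleotide synthesis and salvage genes, 36 replication origin and fork genes, and all coding genes. The nucleotide supply genes reached 44.4% in each DMSO library and 88.9% in each abemaciclib library, against 7.86% to 12.4% and 53.9% to 58.0% of all coding genes.

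The letters under the peaks were read from GRCh38 to show the E2F-type matches that lie nearest to the Rb summits, because E2F factors carry Rb to DNA. The E2F motif was searched on both strands as TTNNCGC, with each N a C or a G. Each sequence below is 30 bases, 5′ to 3′ on the strand of the named gene, with the match in capitals. The site shown is, for each promoter region, the match closest to an abemaciclib summit.
RRM1, chr11:4095116-4095145: gccttcgctgcTTCCCGCctttcccgcatt
RRM2 upstream region, chr2:10120636-10120665: aaccgcccgcaTTGCCGCgtggccctgggc
RRM2 start region, chr2:10122365-10122394: ggggcccgcgcGCGCCAAggccgccgagac
TYMS, chr18:657603-657632: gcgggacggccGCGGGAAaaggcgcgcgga
TK1, chr17:78187047-78187076: aaagcggtcggcGCGGGAAccaggggctta
DUT, chr15:48332144-48332173: gggcggggctgGCGGGAAatttcggttttg
DCK, chr4:70993659-70993688: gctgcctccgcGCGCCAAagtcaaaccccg
DCTPP1, chr16:30430310-30430339: tgccgtttcgctTTGGCGCcctctggcgcc

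The RRM1 site was 1 of 3 matches in tandem in the first part of the gene, 331, 340 and 349 bp downstream of the canonical TSS and outside any annotated exon. The stretch at chr11:4095116-4095163 is given whole because the same 7 letters recur in it, with the 3 matches in capitals.
RRM1 tandem matches: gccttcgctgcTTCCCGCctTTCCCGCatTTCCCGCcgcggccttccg

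The distance from the printed match to the nearest abemaciclib summit was 29 bp at TYMS, 34 bp at DCK, 36 bp at DCTPP1 and 49 bp at RRM1. It was longer at RRM2, 84 bp in the upstream region and 178 bp at the start, at TK1 (176 bp) and at DUT (283 bp). The matches were chosen as the closest to a summit of either abemaciclib library, which favours short distances, and no background distance was computed. In the other abemaciclib library the nearest summit lay 562 bp away at TYMS, 54 bp at DCK, 173 bp at DCTPP1 and 152 bp at RRM1. For the rest it lay 184 bp (RRM2 upstream), 378 bp (RRM2 start), 182 bp (TK1) and 603 bp (DUT) away. The TYMS match lay 36 bp and the TK1 match 9 bp before the canonical TSS, whereas the DUT match lay 729 bp after it. The matches at TK1, DUT, DCK and the RRM2 start lay in annotated exons of their own genes. The DUT match also lay within the window from 250 bases before to 50 after another RefSeq start of DUT (chr15:48331947-48332246). That window held 2 E2F matches. The DCTPP1 match lay 294 bp upstream of that gene, in an annotated exon of its neighbour ZNF771.

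Over whole promoter regions (the merged Rb peaks), 5 E2F matches were found at RRM1, 5 at TYMS, 4 at RRM2, 3 at DCK, 2 at DUT, 1 at TK1 and 1 at DCTPP1. At RRM2, 2 of the 4 matches were the same stretch read on opposite strands, 3 bp apart. None was found in the RRM2B region. Such matches are common in long peaks: of coding promoter peaks 1000 to 1600 bp wide, 65.7% in abemaciclib replicate 1 and 68.4% in replicate 2 held at least 1. The RefSeq table of promoter windows, 250 bases before to 50 after a start, held 13 windows of 8 of the genes, some of them overlapping. An E2F match was present in 6 of the 13, 1 each at DCK, DUT, RRM1, RRM2, TK1 and TYMS, compared with 13.0% of all 35116 windows. DCTPP1 and SAMHD1 held none, and RRM2B was not in that table. The same words reversed without complement were found in 4 of the 13 (at DUT, SAMHD1 and TYMS) and in 11.1% of all windows.

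In the 200 bp centred on each gene's strongest summit, the matches varied between libraries. An E2F match was present at 3 of 4 genes in DMSO replicate 1 (DUT, RRM2 and TYMS), against 30.1% of all coding promoter peaks, but at 1 of 4 in DMSO replicate 2 (TYMS), against 27.6%. With abemaciclib it was present at 2 of 8 genes in replicate 1 (DCK and TYMS), against 17.5%, and at 4 of 8 in replicate 2 (DCK, DCTPP1, RRM1 and RRM2), against 17.9%. DCK was the only gene with a match in both abemaciclib libraries. The strongest summits with abemaciclib lay between 5 bp (RRM2B) and 591 bp (TYMS) apart in the replicates, as the plot of peak positions shows.

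Other motifs were also counted in the RefSeq windows. The CCAAT box bound by NF-Y was found in 5 of the 13 (at RRM1, RRM2, SAMHD1 and TK1), or 38.5%, against 34.6% of all windows. The GC box, GGGCGG, was found in 9 of the 13 (at DCK, DCTPP1, DUT, RRM1, RRM2 and TK1), against 45.0%. The cell cycle homology region (CHR), TTTGAA, was found in 2 of the 13 (at DUT and RRM1), or 15.4%, against 15.2%. No motif count was tested.

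**Figure D2:**
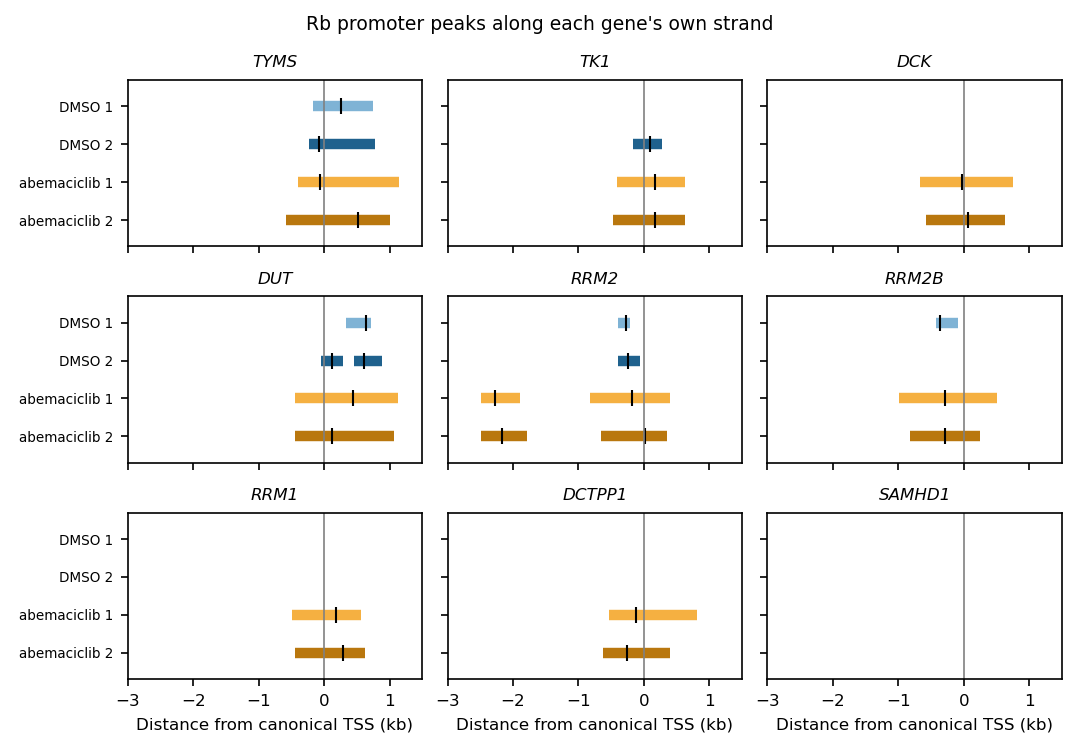
Rb promoter peaks of each gene in the 4 Rb libraries (rows), by distance from the canonical TSS in kb along the gene's own strand (x axis), with bars for peaks and black ticks for summits. RRM2 shows a separate upstream peak in both abemaciclib libraries only, DUT shows 2 peaks in DMSO replicate 2 where the abemaciclib libraries have 1 wide peak, and the SAMHD1 panel is empty.

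Ribonucleotide reductase was considered first. RRM2, the small subunit that limits the enzyme in S phase, had a peak near its canonical TSS in every Rb library (merged region chr2:10121911-10123131). Both DMSO peaks ended upstream of the canonical TSS, whereas both abemaciclib peaks covered it. That contrast holds for the canonical transcript only. Both DMSO summits lay in an exon of another transcript of the gene, inside the RefSeq promoter window of another start (chr2:10122318-10122617). The peak caller's values allowed the summit coverage to be recovered as a whole number of fragments, 7 in DMSO replicate 1, 11 in DMSO replicate 2, 35 in abemaciclib replicate 1 and 29 in abemaciclib replicate 2. Each value was divided by the lowest recurrent background of its library, taken here as the genome-wide mean coverage, to give a relative coverage that can be set side by side across libraries. Relative coverage at the RRM2 start was 10.8 and 16.2 in the DMSO libraries, and 53.4 and 55.7 in the abemaciclib libraries, in replicate order. The means were 54.5 ± 1.63 with abemaciclib and 13.5 ± 3.86 with DMSO (SD, n = 2 each), a ratio of 4.03. The exact permutation p was 0.333, as for every such comparison here.

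The DMSO peaks of RRM2 rested on few fragments. The 7 fragments of DMSO replicate 1 have an exact 95% Poisson interval of 2.81 to 14.4, and the peak ranked 1179 of 1438 in that list. A stricter q-value of 1e-05 removed it, which left 2 genes, TYMS and DUT, with a peak in both DMSO libraries. These intervals cover counting error only, since duplicate reads were kept and the summit is the highest point of a peak.

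RRM2 also had a stronger peak further upstream, called in both abemaciclib lists but in no DMSO list (chr2:10120247-10120957). Its summits lay 2273 and 2173 bp before the canonical TSS, just outside the most upstream annotated transcript of the gene. They held 59 and 52 fragments, a relative coverage of 89.9 and 99.8, and ranked 1546 of 13960 and 1149 of 12234. The peak at the canonical start ranked lower in the same lists, at 3523 and 3485. With each gene's strongest promoter peak taken regardless of position, the RRM2 ratio of abemaciclib to DMSO was 7.02. When a pattern was read over single merged regions, the upstream region added RRM2 to the genes with peaks in abemaciclib alone, which then numbered 4.

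RRM1, the large subunit that holds the catalytic and allosteric sites, had a promoter peak with abemaciclib only (chr11:4094308-4095420). Its summits held 60 and 32 fragments in abemaciclib replicates 1 and 2, a relative coverage of 91.5 and 61.4. They ranked 1484 of 13960 and 2650 of 12234. The replicates thus differed, with a mean of 76.4 ± 21.2 (SD, n = 2). The summits lay 179 and 282 bp downstream of the canonical TSS, in the untranslated region and the first part of an intron. No RRM1 peak was called in DMSO, so no ratio was computed.

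RRM2B encodes the small subunit induced by p53 that serves DNA repair and mitochondrial DNA. It had a promoter peak with abemaciclib in each replicate, and in DMSO replicate 1 (chr8:102238452-102239957). The summit held 9 fragments in DMSO replicate 1 (a second whole number also satisfied the caller's values), 57 in abemaciclib replicate 1 and 37 in abemaciclib replicate 2. Relative coverage was 13.9, 86.9 and 71.0, in the same order. With 1 DMSO peak no spread could be given. The DMSO peak did not pass a q-value of 1e-05, where RRM2B joined the genes with peaks in abemaciclib alone. All 3 summits lay between 284 and 367 bp upstream of the TSS.

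Among the thymidylate genes, TYMS had the strongest peak with abemaciclib. TYMS methylates dUMP to dTMP and is the target of 5-fluorouracil. Its promoter peak (chr18:657074-658800) held 13 and 20 fragments at the summit in the DMSO libraries, and 99 and 66 in the abemaciclib libraries. Relative coverage was 20.0 and 29.5 in DMSO and 151 and 127 with abemaciclib. The means were 24.8 ± 6.73 and 139 ± 17.1 (SD, n = 2 each), a ratio of 5.60 (exact permutation p = 0.333). The peak ranked 589 of 1438, 268 of 2582, 644 of 13960 and 849 of 12234. The TYMS promoter is shared with the antisense transcript TYMSOS and with ENSG00000263727, whose promoter windows the same peaks overlapped.

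DUT hydrolyses dUTP to dUMP. Its peaks (chr15:48330987-48332560) held 13 and 16 fragments in the DMSO libraries, and 71 and 55 in the abemaciclib libraries. Relative coverage was 20.0 and 23.6 in DMSO and 108 and 106 with abemaciclib. The means were 21.8 ± 2.55 and 107 ± 1.88 (SD, n = 2 each), a ratio of 4.90 (exact permutation p = 0.333). Both strongest DMSO summits lay in an intron of the canonical transcript, 646 and 615 bp downstream of the canonical TSS. They also lay inside the RefSeq promoter window of another DUT start (chr15:48331947-48332246). The abemaciclib summits lay closer to the canonical TSS, at 446 and 126 bp, and outside that window. DMSO replicate 2 had a second peak 115 bp downstream of the TSS, with 12 fragments. The promoter window of DUT-AS1 overlapped the same peaks.

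TK1 phosphorylates thymidine in the salvage route and is made mainly in S phase. It had a promoter peak in DMSO replicate 2 and with abemaciclib in each replicate (chr17:78186423-78187525). The summit held 18 fragments in DMSO replicate 2, and 75 and 59 in abemaciclib replicates 1 and 2. Relative coverage was 26.6 in DMSO replicate 2, where the peak ranked 509 of 2582, and 114 and 113 with abemaciclib. The abemaciclib values differed by less at TK1 than at any other of the 8 genes (114 ± 0.768, SD, n = 2). The peak was missing from the DMSO replicate 1 list, although its value in DMSO replicate 2 was above those of RRM2 and DUT. AFMID shares the promoter, and the same peaks overlapped its window.

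TK1 was also the only 1 of the 9 genes with a peak inside the gene but outside a promoter window. That peak, in abemaciclib replicate 1 alone, lay in a coding exon 12215 bp downstream of the canonical TSS. It held 11 fragments and ranked 11551 of 13960, near the weak end of the list.

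Peaks with abemaciclib were wider as well as higher at the genes that had peaks in DMSO, as they were at coding promoters in general. At DUT the strongest peak measured 410 ± 46.0 bp in DMSO and 1542 ± 37.5 bp with abemaciclib (SD, n = 2 each), a ratio of 3.76. At TYMS it measured 964 ± 59.4 and 1568 ± 34.6 bp, a ratio of 1.63. The TYMS peak was thus already wide in DMSO, where the median width of coding promoter peaks was 279 and 268 bp. With abemaciclib that median was 854 and 796 bp, so wider peaks were not particular to these genes. Width and height are not independent measures of a peak.

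The ratios at these genes stood below the median of the shared promoters that could be solved. Of the 1281 coding genes with a promoter peak in all 4 Rb libraries, 1121 had a summit that could be solved in each. Their median ratio of relative coverage, abemaciclib over DMSO, was 7.17, with quartiles of 5.93 and 8.73. The other 160 lacked a solved summit with abemaciclib, since every coding gene with a DMSO promoter peak was solved in DMSO. The ratios of those 160 are unknown, so the median and quartiles describe the solved genes only and may not hold for all 1281. Each ratio used the gene's strongest promoter peak in each library, whatever its position. TYMS (5.60) and DUT (4.90) lay under the lower quartile. RRM2, by that measure, was close to the median at 7.02, with its upstream abemaciclib peak set against the DMSO peak near the start. Its ratio for the peaks near the start alone was 4.03, a different measure from that of the quartiles. All of these ratios were computed on genes with a peak in DMSO, which leaves out genes whose DMSO signal was too low to be called.

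**Figure D3:**
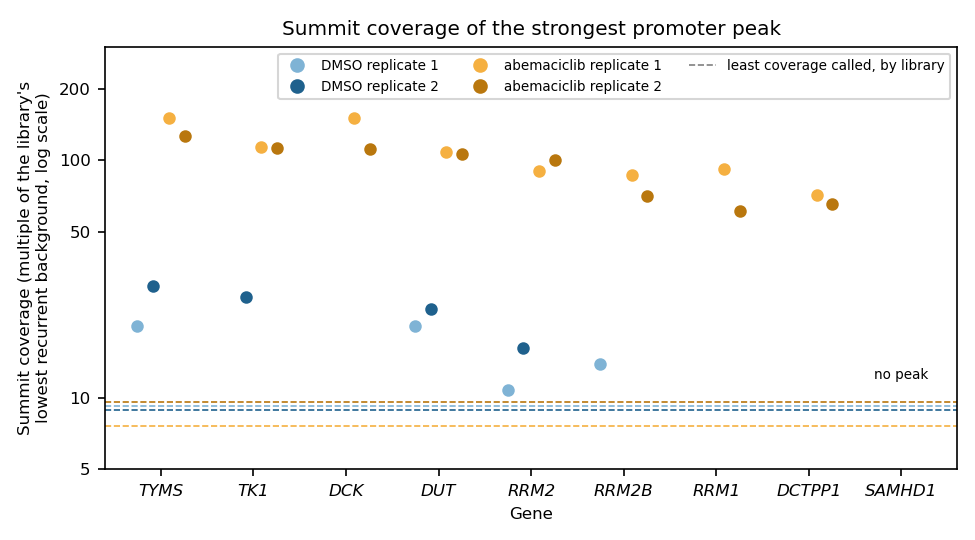
Relative coverage at the summit of the strongest promoter peak (y axis, log scale, multiples of the library's lowest recurrent background) for each gene in each Rb library (points), with dashed lines at the least value called at that background, 9.24 and 8.86 for DMSO and 7.62 and 9.60 for abemaciclib. DMSO points lie between 10.8 and 29.5 and abemaciclib points between 61.4 and 151.

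Of the remaining genes, DCK had the highest coverage. DCK phosphorylates deoxycytidine and activates nucleoside drugs such as cytarabine and gemcitabine. Its promoter peak (chr4:70992978-70994399) was called with abemaciclib alone and held 99 and 58 fragments in replicates 1 and 2, a relative coverage of 151 and 111. It ranked 734 of 13960 and 1775 of 12234. The fold enrichment over local background was lower in replicate 2 (20.012) than in replicate 1 (44.047), and the local background there was 1.948 fragments against 1.270. The summits lay 30 bp upstream and 58 bp downstream of the canonical TSS. Although no DMSO peak was called, DCK had a relative coverage in abemaciclib replicate 1 equal to that of TYMS.

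DCTPP1 removes modified and surplus dCTP. Its promoter peak (chr16:30429226-30430661) was also found with abemaciclib alone, and it was the weakest of the 8 by rank. The summits held 47 and 34 fragments, a relative coverage of 71.6 and 65.3, and ranked 3186 of 13960 and 4117 of 12234. They lay 121 and 258 bp upstream of the canonical TSS. The local background was raised here too, at 1.493 and 1.948 fragments.

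SAMHD1 cleaves dNTPs outside S phase and so acts against the enzymes that make them. It has 20 annotated TSS positions, and no Rb peak overlapped any of their windows or the gene itself. In the abemaciclib libraries the nearest peak lay 2.60 and 2.63 kb from the gene, at the promoter of the neighbour TLDC2, where it ranked 7345 of 13960 and 6950 of 12234. It lay past the end of SAMHD1 opposite the canonical TSS, so it was not near that TSS. In both DMSO libraries the nearest peak was 144 kb away, past the end with the canonical TSS, at the promoter of RBL1, which encodes the Rb relative p107. At the lowest background, a summit of 5 fragments was called in either abemaciclib library, a relative coverage of 7.62 and 9.60. The local background at SAMHD1 is unknown, and a higher one would raise that level, so SAMHD1 signal was not detectable at this depth rather than shown to be absent.

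Ordered by mean relative coverage with abemaciclib, the genes ran from TYMS (139 ± 17.1) and DCK (131 ± 28.0) through TK1 (114 ± 0.768), DUT (107 ± 1.88), RRM2 (94.9 ± 6.98, upstream peak), RRM2B (79.0 ± 11.2) and RRM1 (76.4 ± 21.2) to DCTPP1 (68.5 ± 4.52; SD, n = 2 each). The replicate values of DCK overlapped those of TYMS and of TK1, while TYMS and TK1 did not overlap each other. There was overlap among the values of RRM2B, RRM1 and DCTPP1. TK1 and DUT did not overlap but were 4 fragments apart in each library, and the 95% Poisson intervals in replicate 1, 59.0 to 94.0 for TK1 and 55.5 to 89.6 for DUT, did overlap. DUT and RRM2, and RRM2 and RRM2B, also had replicate values that did not overlap. The intervals of each pair overlapped in both libraries, with 38.8 to 68.2 fragments for RRM2 and 26.1 to 51.0 for RRM2B in replicate 2, for example. No neighbours in this order were separated beyond counting error.

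The genes stood higher in both abemaciclib lists than coding promoters in general, by their median rank. The rank of a gene's strongest promoter peak was expressed as a percentage of the list, with 0 the strongest. The median over the genes with a peak was 10.0% and 12.5% in abemaciclib replicates 1 and 2, where the median over all coding genes with a peak was 38.1% and 40.0%. In DMSO replicate 1 the genes had a median of 48.4% against 48.6%, and in DMSO replicate 2 a median of 20.5% against 44.8%. DMSO replicate 1 thus placed these genes at the middle of its list and DMSO replicate 2 did not, and each DMSO median rests on 4 genes.

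**Figure D4:**
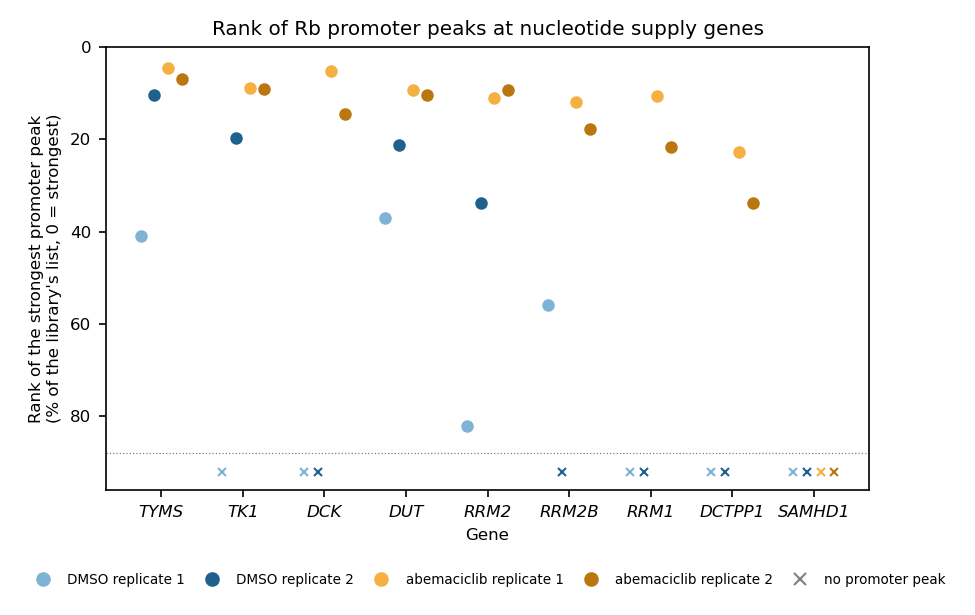
Rank of each gene's strongest Rb promoter peak as a percentage of its library's peak list (y axis, 0 at the top is the strongest), with 1 point per library and crosses for libraries without a promoter peak. With abemaciclib all 8 genes with a peak lie between 4.61% and 33.7%, whereas the DMSO points run from 10.4% for TYMS to 82.0% for RRM2.

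Few other genes of nucleotide metabolism had an Rb peak in every library. A list of 50 further synthesis and salvage genes, none of them among the 9, covered the purine and pyrimidine routes, folate enzymes, kinases and salvage. Of these, 5 and 11 had a promoter peak in the DMSO libraries, and 47 and 43 in the abemaciclib libraries. Peaks in all 4 Rb libraries were found at 3 of the 50 (6.0%), close to the 6.41% of all coding genes. They included MTHFD1, an enzyme of folate metabolism (ranks 98 and 142 in DMSO, then 221 and 291 with abemaciclib), and APRT, which salvages adenine (652 and 1172, then 797 and 742).

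Peaks with abemaciclib alone, in both of its libraries, stood at 30 of 50 genes (60.0%) in that list, against 38.9% of coding genes. The best ranked were TYMP, which breaks thymidine down (ranks 1106 and 1395 in abemaciclib replicates 1 and 2), PNP, a purine phosphorylase (1481 and 1620), and GMPS, the last step to GMP (1752 and 1917). DGUOK, GLRX and CDA, named after their values were seen because they were the 3 of the list with no Rb promoter peak, lacked one as SAMHD1 did. The median rank of the list with abemaciclib was 32.1% and 35.3%, against 10.0% and 12.5% for the 9 genes and 38.1% and 40.0% for coding genes in general.

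Genes of the replication machinery that consumes dNTPs gave a second comparison. In a list of 36 origin and fork genes, 20 (55.6%) had a promoter peak in all 4 Rb libraries, against 3 of the 9 nucleotide supply genes (33.3%). All 36 had one in both abemaciclib libraries. Their median rank there was 9.36% and 9.48%, so a high rank was not particular to the nucleotide supply genes. The strongest were RPA3, a subunit of the single-strand binding protein (ranks 31 and 19 in DMSO, then 8 and 8 with abemaciclib), CDC6, an origin licensing factor (20 and 16, then 55 and 69), and MCM5, a helicase subunit (30 and 14, then 97 and 84). No nucleotide supply gene ranked above 268 in any list, the rank of TYMS in DMSO replicate 2. The lists were compared by counts alone, and no test of their difference was made.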

How the data were processed

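Rb was profiled in ZR-75-1 cells, and the deposited files were MACS2 peak lists, 1 per library. The authors trimmed reads, aligned them to hg38 with Bowtie2 2.3.4.1 (versions from the submitters' processing notes), removed mitochondrial and blacklisted reads, kept duplicates and called peaks in each library with MACS2 2.2.7.1 at q 0.05 against matched IgG. Which control, if any, was used for the IgG2a list is not given in the sources used here. The deposited fold enrichment is a ratio of summit pileup to local background, each with 1 added, and the deposited −log10 p-value is a Poisson p-value, so both depend on library depth.

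Peaks were ranked within each list by −log10 p. Whole-number pileups that satisfied fold and p within 0.003 in −log10 p were found for 98.0% to 99.7% of peaks per library, a step tested on simulated data. Relative coverage assumes that the lowest recurrent background, computed as the most frequent local background among a library's solved peaks, is the mean coverage. Overlap needed 1 bp. Coordinates are GRCh38, counted from 1. Genes came from GENCODE 44 and promoter sequences from RefSeq (GRCh38), which matched 8 of the 9 genes. Lists hold no counts over common regions, so no count model was run. Treatments were compared by the exact permutation test over libraries, two-sided, in 8 comparisons, where every p was 0.333 before and after Benjamini-Hochberg adjustment. Scripts used Python 3.11.15, numpy 2.4.6 and scipy 1.17.1.

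All 9 genes were named. From each comparison list, the 3 genes best ranked over the 4 Rb libraries among those with peaks in all 4 were named, and from the nucleotide list also the 3 best ranked in abemaciclib alone. Some items that this rule covers are not reported here. The 9 genes, the lists, the tests and the alternatives were chosen with earlier results of these data known.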

Additional observations from a re-analysis of the deposited data

How the results depend on the processing

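Of the 66 recomputed values, 62 counted as unchanged, though some of them could not have changed, as said below. These 62 stayed within 1.5 times the main count, kept their direction or moved by less than the replicate spread. The others came from limiting each Rb list to its 1438 strongest peaks. This left 3 genes with peaks in both abemaciclib libraries (8 in the main count), 0 with peaks in both of these but in neither DMSO library (3 in the main count) and a difference between treatments of 0 (4.0 in the main count, exact permutation p = 1.000). The alternative drops most of each abemaciclib list by construction, and it moved the median abemaciclib rank from 11.2% to 73.6%. Leaving out either DMSO library gave 4 genes in place of 3 with peaks in both DMSO libraries, in all 4 Rb libraries and in both abemaciclib but no DMSO libraries. Without DMSO replicate 1 the added genes were TK1, TK1 and RRM2B, and without DMSO replicate 2 they were RRM2B, RRM2B and TK1. Leaving out a library kept the difference at 4.0, but it could not do otherwise. Each DMSO library had 4 of the genes and each abemaciclib library 8. Leaving out an abemaciclib library likewise cannot alter the count in both DMSO libraries. Stricter q-values, a window of 500 bp on each side of a TSS, canonical transcripts only and summits inside the window kept 8 genes in both abemaciclib libraries. Removal of peaks overlapping IgG2a peaks did too, but no IgG2a peak overlapped the genes' Rb peaks, so that count could not change. A replicate block, added after the data were seen, paired the libraries by number, which the labels do not tie to a shared run. The difference was 4.0 in each pair, with an exact sign-flip permutation p of 0.50, the smallest 2 pairs allow. Summits of the strongest promoter peaks held 7 to 20 fragments in DMSO, so those values carry wide counting intervals.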
